A study of Homo sapiens with 24 samples.

Results

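The genes described here are 31 well-known regulators and targets of p53, found by symbol among the 58138 gene names that were counted in 24 libraries of human embryonic kidney cells. They were picked by name as well-known p53 genes, by a rule that uses no measured value but was written with earlier results of these data known, and all 31 are in the count tables. p53 is a transcription factor that is stabilised by DNA damage and other stress and then switches on genes that stop the cell cycle, repair DNA or kill the cell. MDM2, itself a p53 target, marks p53 for degradation and so closes a feedback loop. HEK293 cells and their derivatives carry adenovirus early-region genes whose products bind p53, and HEK293T cells also carry the large T antigen of SV40, which binds the part of p53 that contacts DNA. In such cells p53 accumulates as protein and is a poor activator.

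The study asked how the RPRD proteins, which bind the tail of RNA polymerase II, affect the amount of RNA at steady state. In HEK293T cells, 7 groups received small interfering RNAs (siRNAs) against RPRD genes for 48 h and 1 group, CTRL, received a control siRNA. Single knockdowns are labelled RPRD1A_KD, RPRD1B_KD and RPRD2_KD. The combined ones are RPRD1A_RPRD2_KD, RPRD1B_RPRD2_KD, the triple knockdown RPRD1A_RPRD1B_RPRD2_KD, and a group labelled RPRD1A_RPRD1A_KD, which names RPRD1A in both places and was kept as it stands. In Flp-In T-REx 293 cells, a HEK293 derivative made for inserting a transgene under tetracycline control, the groups are the parent line (FLP), the line labelled RPRD1B_FL, and each of them with tetracycline for 48 h (FLP_TET, RPRD1B_FL_TET). The labels do not say what FL stands for, nor whether RPRD1B_FL is a single clone. Each group holds 2 libraries, 16 of HEK293T and 8 of Flp-In cells. Nothing in the labels says that the 2 came from separate cultures, so p-values measure only the spread between these libraries, which may be technical. All 16 HEK293T libraries, CTRL included, came from cells given siRNA and no Flp-In library did, so the cell line, the transfection and the handling of each set of cells cannot be told apart.

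Libraries held 1817246 to 3135625 counts in genes in HEK293T cells and 2342969 to 3531106 in Flp-In cells. Levels are given as CPM, a gene's counts scaled to 1000000 counts in genes after adjusting each library's size by its TMM factor (0.888 to 1.056). On this scale 3 counts, taken as the floor of detection, equal 0.86 to 1.67 CPM. Reads lie at transcript 3′ ends, and levels are compared between libraries, not between genes. RPRD1A was at 157 ± 6.5 CPM (SD, n = 2) in CTRL and at 19.2 to 25.6 CPM in the 4 group means labelled with it, RPRD1B was at 27.6 against 7.52 to 10.3 CPM in its 3, and RPRD2 was at 97.7 against 31.8 to 59.6 CPM in its 4. RPRD1B was also at 10.8 ± 4.2 CPM (SD, n = 2) in RPRD1A_RPRD1A_KD, whose label does not name it. RPRD1A averaged 91.7 CPM in RPRD1B_KD, 84.6 CPM in RPRD2_KD and 75.2 CPM in RPRD1B_RPRD2_KD. A mean of RPRD1A below that of CTRL was thus not limited to the knockdowns aimed at this gene. None of 10 markers of the HEK293 family was at 0 throughout, with summed levels of 364 to 509 CPM in HEK293T and 769 to 1060 CPM in Flp-In libraries. Of 14 markers of other cell types, 6 were at 0 in all 24 libraries (CD3E, COL1A2, DCN, CDH5, KRT5 and KRT14). The summed level of those reported here was 5.79 to 17.8 CPM in HEK293T and 2.22 to 6.46 CPM in Flp-In cells. Of the fibroblast markers, COL1A1 had a median of 8.47 CPM in HEK293T and 3.48 CPM in Flp-In libraries, and COL3A1 had 1.54 and 0.603 CPM. The part of these markers in the results was not tested. Reads outside genes made up 34.33% to 36.66% of the reads in replicate 1 and 27.36% to 29.77% in replicate 2 of HEK293T cells, against 15.3% to 19.5% in Flp-In cells. The second RPRD1A_RPRD2_KD library stood apart in how expression followed transcript GC content (Spearman's rho across genes 0.29, against -0.33 to -0.07 in the other HEK293T libraries and -0.16 to 0.52 in Flp-In libraries).

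p53 binds DNA as a tetramer at 2 adjacent copies of a 10-base motif, which together read the same on both strands. The 250 bases before each transcript start were searched for this 20-base consensus, in RefSeq promoter sequences of GRCh38.p14 that matched 26 of the 31 genes. Windows with at most 3 mismatches were found for 7 of the 26 (26.9%), against 5.38% of all 27305 genes with a promoter in the table. With at most 2 mismatches the shares were 11.5% (3 genes) and 0.71%, and with 1 or more perfect 10-base copies they were 19.2% (5 genes) and 6.8%. The 7 sites are shown because these genes are among those whose levels are compared below, and the capitals mark the 20-base match. A match is a description of the letters, and binding of p53 to these sites was not measured.
MDM2 (chr12:68808893-68808972, + strand, site from 101 to 82 bases before the start, 2 mismatches): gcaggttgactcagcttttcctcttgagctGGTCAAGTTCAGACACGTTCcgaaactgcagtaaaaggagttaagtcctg
FBXW7 (chr4:152382530-152382579, - strand, site from 20 to 1, 3 mismatches): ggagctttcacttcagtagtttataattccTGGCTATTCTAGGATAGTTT
PMAIP1 (chr18:59899781-59899860, + strand, site from 185 to 166, 3 mismatches): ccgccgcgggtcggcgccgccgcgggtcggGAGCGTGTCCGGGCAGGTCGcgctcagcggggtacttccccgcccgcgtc
FAS (chr10:88991304-88991333, + strand, site from 122 to 103, 2 mismatches): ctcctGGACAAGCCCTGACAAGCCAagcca
AEN (chr15:88621301-88621330, + strand, site from 34 to 15, 2 mismatches): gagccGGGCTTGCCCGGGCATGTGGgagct
SESN1 (chr6:109008989-109009067, - strand, site from 49 to 30, 3 mismatches): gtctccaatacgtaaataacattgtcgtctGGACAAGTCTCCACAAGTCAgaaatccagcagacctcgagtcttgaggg
FDXR (chr17:74872995-74873020, - strand, site from 21 to 2, 3 mismatches): ggcccGGGCAGGAGCGGGCTTGCCCt
The stretches of FAS, AEN and FDXR overlap an exon of another annotated transcript. Of these 7 genes, 6 were lower in HEK293T than in Flp-In cells by the test below and FBXW7 was higher. Beside them, 20 of the 30 genes tested were lower and 6 higher, and 33.6% and 35.1% of all genes tested. FAS, 1 of the 6 lower genes, had too few counts for a test within either line. Whether a site goes with the direction of a difference was not tested.

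The main contrast over these genes lay between the 2 cell lines. Most p53 targets that stop the cell cycle or kill the cell were lower in HEK293T than in Flp-In cells, CDKN1A by 5.62-fold and PHLDA3 by 6.29-fold, while BAX, TIGAR, POLH and MDM4 were higher. With edgeR's quasi-likelihood test of the mean of the 8 HEK293T groups against the mean of the 4 Flp-In groups, 26 of the 30 genes tested passed an adjusted p of 0.05, and 20 of them were lower and 6 higher in HEK293T. The lines differed widely: 68.8% of all 12803 genes tested passed, 33.6% lower and 35.1% higher. The median log2 fold change was -0.84 over the 30 genes and 0.029 over all genes tested. SPATA18 had too few counts to be tested. PLK2, GDF15 and FAS had too few counts in HEK293T cells for a test within that line; PLK2 and GDF15 passed the filter on low counts through the Flp-In groups, where they are high, and so had to differ. Among the 27 genes with enough counts in each line alone, 23 passed, 17 lower and 6 higher. GC dependence also differed between the lines. With the GC correction 26 of the 30 genes passed, 21 lower and 5 higher, beside 67.8% of all genes. In these bulk samples, fewer cells expressing a gene and less RNA per cell cannot be told apart.

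**Figure D1:**
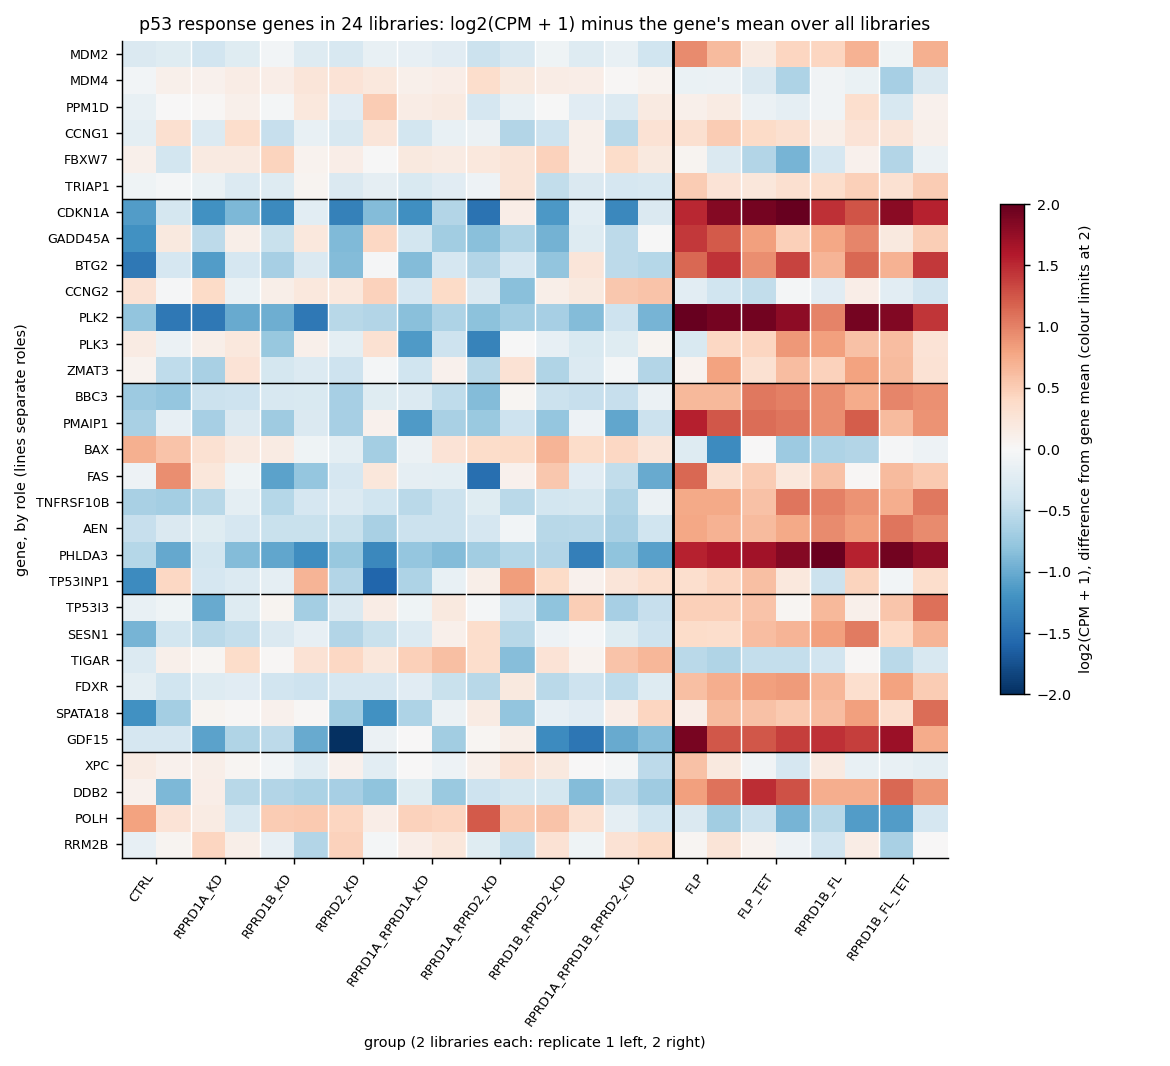
Each row is a p53 response gene and each column a library, coloured by log2(CPM + 1) minus the gene's mean over all 24 libraries (colour limits at 2 in each direction), with the black vertical line between HEK293T (left) and Flp-In libraries (right). CDKN1A, PLK2, PHLDA3 and GDF15 are above their mean in all 8 Flp-In libraries, while BAX, TIGAR and POLH lean the other way.

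Without averaging over groups, CTRL alone was compared with FLP alone, 2 libraries each. Here 17 of the 30 genes passed, 15 lower and 2 higher in CTRL, against 33.4% of all genes tested (17.4% lower, 16.1% higher). Among the 27 genes with enough counts in each line alone, which leave out PLK2 and GDF15, 15 passed, 13 lower and 2 higher. The median log2 fold change was -0.74 over the 30 genes and 0.023 over all. These libraries are also part of the comparison of group means, so the 2 results are not independent. As a description without a model, every Flp-In library was above every HEK293T library for 12 of the 30 genes, against 11.8% of all genes tested. These were CDKN1A, BTG2, PLK2, BBC3, PMAIP1, TNFRSF10B, AEN, PHLDA3, SESN1, FDXR, GDF15 and DDB2. PLK2 and GDF15 passed the filter on low counts through the Flp-In groups, which favoured their separation. They add no support to this count, nor to the counts of 11 and 18 below, which include them. MDM4 was the 1 gene with every Flp-In library below every HEK293T library (8.7% of all genes tested), and the other 17 overlapped. With plain library sizes in place of TMM, SESN1 overlapped, which left 11 genes (10.2% of all), and MDM4 stayed apart (10.6% of all). The 4 Flp-In group means lay above all 8 HEK293T group means for 18 of the 30 tested genes, against 22.2% of all, and below all 8 for 3 (MDM4, TIGAR and POLH), against 22.1% of all.

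**Figure D2:**
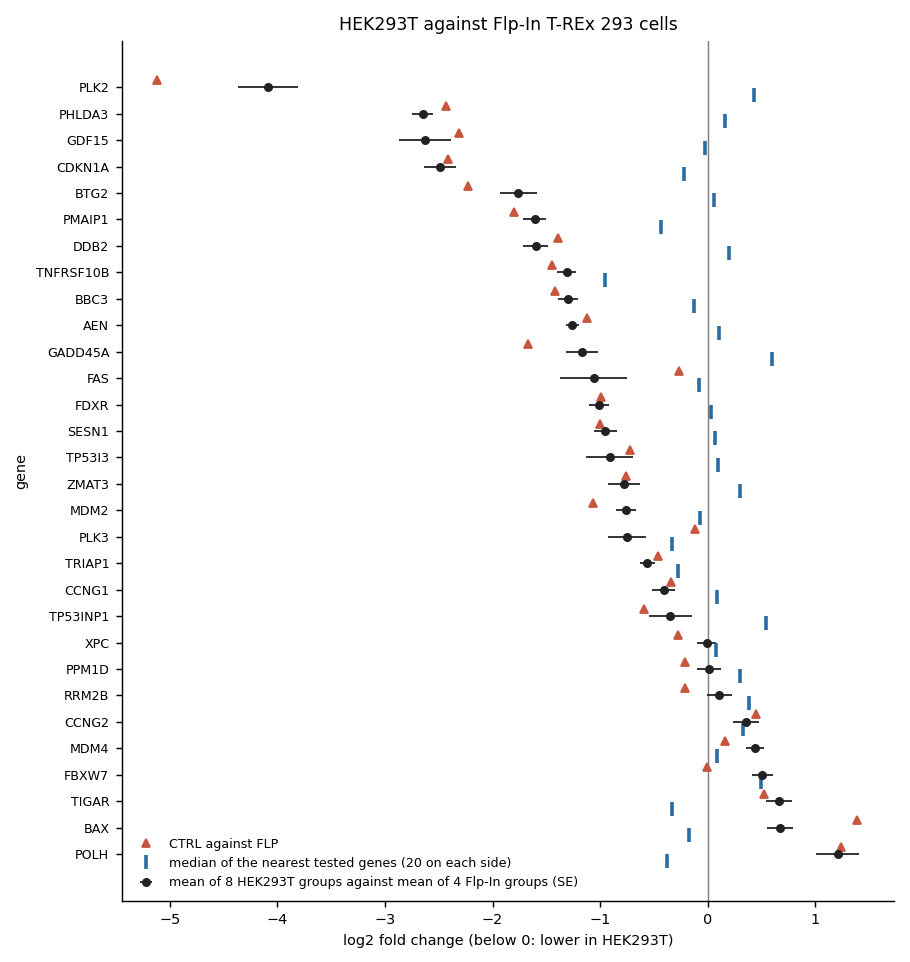
Log2 fold change (HEK293T over Flp-In) of 30 p53 response genes. Black points are the mean of 8 HEK293T groups against the mean of 4 Flp-In groups with bars of 1 SE, red triangles are CTRL against FLP, and blue ticks are the median log2 fold change of the 20 nearest tested genes on each side. PLK2, PHLDA3, GDF15 and CDKN1A lie farthest to the left. PLK2 and GDF15 passed the filter on low counts through the Flp-In groups, where they are high, and so had to differ.

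Among the regulators of p53, 3 of 6 were lower in HEK293T and 2 higher, beside 33.6% and 35.1% of all genes tested. MDM2 (chr12:68808176-68850686, + strand, GRCh38), the ubiquitin ligase that degrades p53, was at 63.7, 72.5 and 83.1 CPM (lowest, median and highest) over the 16 HEK293T libraries and at 81.1, 126 and 168 CPM over the 8 Flp-In libraries. Only the lowest Flp-In library, of RPRD1B_FL_TET, fell within the HEK293T range. MDM2 was 1.7-fold lower in HEK293T (log2 fold change -0.76, SE 0.09, edgeR adjusted p = 2.29e-08) and 2.11-fold lower in CTRL, at 70.6 and 73.2 CPM, than in FLP, at 168 and 135 CPM (edgeR adjusted p = 0.000294). Its relative MDM4 (chr1:204516379-204558120, + strand), which blocks the activating part of p53, went the other way. MDM4 was at 53.9, 61.2 and 71.1 CPM in HEK293T and at 35, 48.1 and 53.2 CPM in Flp-In libraries, so the ranges missed each other narrowly. Its difference was 1.35-fold (0.44, SE 0.08, edgeR adjusted p = 1.92e-05), and in CTRL against FLP it did not pass (0.16, SE 0.18, edgeR adjusted p = 0.519). Nor did it pass between the lines with the GC correction and the replicate number as a block (0.16, edgeR adjusted p = 0.153).

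PPM1D (chr17:60600183-60666280, + strand) encodes the phosphatase WIP1, which removes activating phosphates from p53 and its kinases and is itself induced by p53. It was at 20.5, 26 and 37.6 CPM in HEK293T and at 20.6, 26.2 and 33.1 CPM in Flp-In libraries. These ranges coincide, and the log2 fold change was 0.01 (SE 0.11, edgeR adjusted p = 0.943). CCNG1, which encodes cyclin G1, a partner of MDM2, was at 32.4, 43.6 and 63.6 CPM against 52.9, 60.9 and 70.5 CPM, lower by 1.33-fold in HEK293T (edgeR adjusted p = 0.0023). TRIAP1, a small p53-induced inhibitor of apoptosis, was at 176, 209 and 295 CPM against 290, 313 and 351 CPM, lower by 1.48-fold (edgeR adjusted p = 7.18e-08). FBXW7, which encodes the substrate-binding part of a ubiquitin ligase for cyclin E and MYC, was at 43.5, 64.3 and 77.9 CPM against 29.1, 45.2 and 60.1 CPM, higher by 1.43-fold (edgeR adjusted p = 4.07e-05). The 40 tested genes around FBXW7 were also higher in HEK293T, with a median log2 fold change of 0.50 against 0.51 for FBXW7. In CTRL against FLP its log2 fold change was near 0 (-0.01, SE 0.22, edgeR adjusted p = 0.982).

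Of the 7 cell cycle and growth arrest genes, 6 were lower in HEK293T and 1, CCNG2, was higher, with a median log2 fold change of -1.17. Over all genes tested, 33.6% were lower and 35.1% higher. PLK2, among the 6, passed the filter on low counts through the Flp-In groups and adds no support to this count. CDKN1A (chr6:36676460-36687339, + strand) encodes p21, the inhibitor of cyclin-dependent kinases through which p53 stops the cell cycle. It was at 8.42, 12.1 and 27.7 CPM in HEK293T and at 61.7, 82.5 and 106 CPM in Flp-In libraries. The lowest Flp-In library, of RPRD1B_FL, was far above the highest HEK293T library, the second RPRD1A_RPRD2_KD library. The log2 fold change was -2.49 (SE 0.15, edgeR adjusted p = 1.09e-13), and it was -2.41 (SE 0.38, edgeR adjusted p = 2.70e-05) for CTRL, at 11.1 and 19.5 CPM, against FLP, at 73.4 and 92.3 CPM. Within a replicate number, with 1 library a group, the log2 fold change was -3.06 among libraries numbered 1 and -2.17 among those numbered 2.

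PLK2 (chr5:58453982-58460260, - strand), a kinase of the polo family that p53 induces, was near the floor of detection in HEK293T. It was at 0, 0.518 and 1.02 CPM there, from 19 counts in all 16 libraries, and at 4.37, 8.95 and 11.4 CPM in Flp-In cells, from 190 counts in 8. The ratio of summed levels was 17.1 (exact 95% interval 10.6 to 29, counting error only). CTRL held 1 count and FLP 62, a ratio of 41.1 with an interval of 7.1 to 1650. BTG2, an antiproliferative gene, was at 2.78, 5.99 and 11.1 CPM against 15.3, 21.7 and 26.7 CPM, lower by 3.38-fold without overlap (edgeR adjusted p = 6.15e-10).

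GADD45A, a stress sensor that binds PCNA and p21, was at 9.45, 16.3 and 31.4 CPM in HEK293T against 26.7, 41.2 and 63.5 CPM in Flp-In libraries. The ranges overlap slightly, and the fold was 2.26 (log2 fold change -1.17, SE 0.15, edgeR adjusted p = 1.70e-07), while the 40 tested genes around it had a median of 0.60. ZMAT3, an RNA-binding p53 target, was at 8.4, 10.8 and 16.9 CPM against 14.4, 20.4 and 24.7 CPM, lower by 1.72-fold (edgeR adjusted p = 4.00e-05). PLK3, another stress-activated polo kinase, was at 2.11, 6.07 and 8.63 CPM against 5.32, 10.1 and 13.2 CPM, lower by 1.68-fold (edgeR adjusted p = 0.000574). In CTRL against FLP, neither ZMAT3 (edgeR adjusted p = 0.104) nor PLK3 (edgeR adjusted p = 0.855) passed. CCNG2, which encodes the unconventional cyclin G2, was at 9.45, 20.4 and 26.7 CPM against 12.3, 15.1 and 19.4 CPM, higher by 1.28-fold (edgeR adjusted p = 0.012). That call was lost in 6 of 33 alternative settings, the GC correction (0.22, edgeR adjusted p = 0.103) and DESeq2 (adjusted p = 0.0587) among them, and the genes around CCNG2 had a median log2 fold change of 0.33, close to its 0.36.

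**Figure D3:**
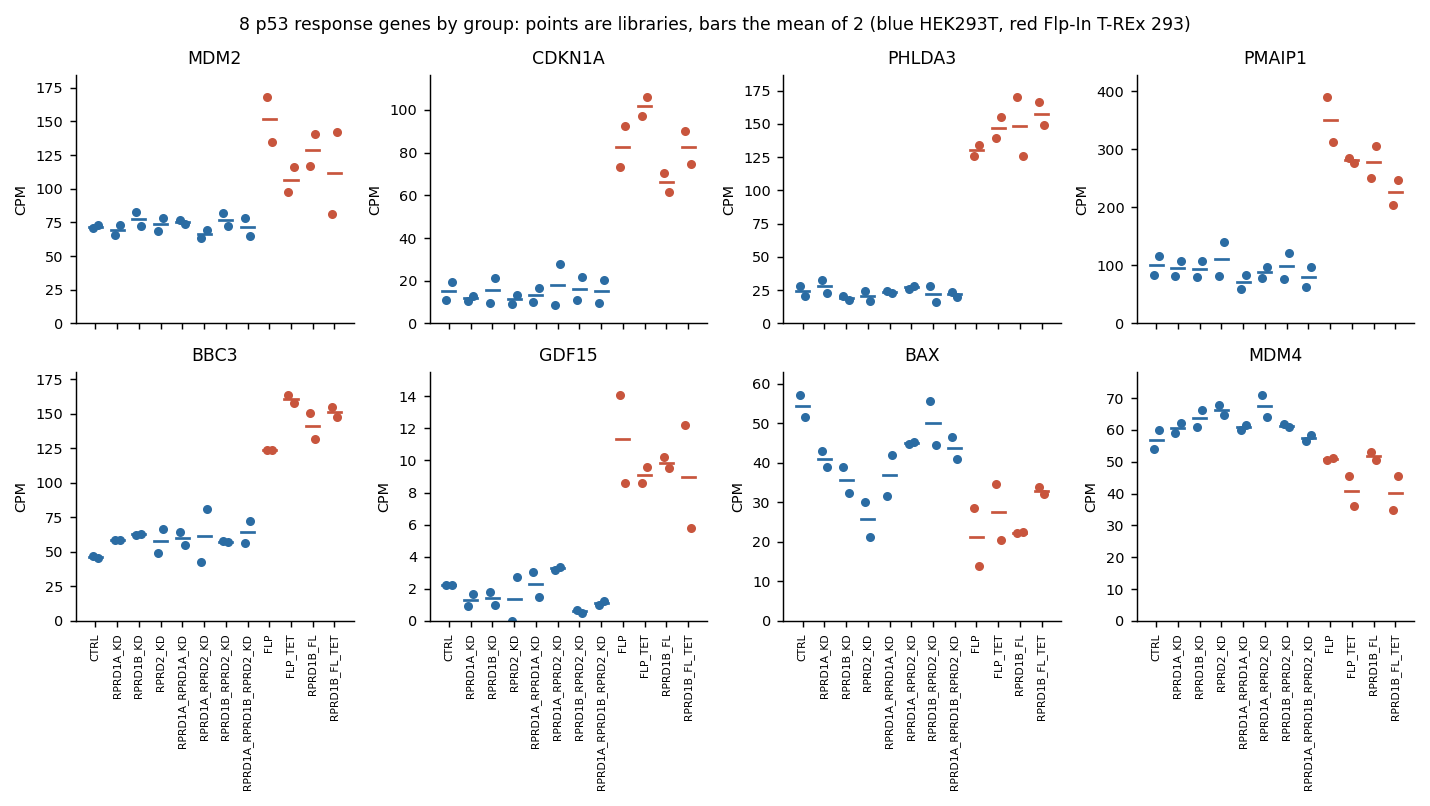
CPM of 8 p53 response genes in each group. Points are libraries, bars the mean of 2, blue for HEK293T and red for Flp-In, and every axis starts at 0. CDKN1A, PHLDA3, PMAIP1, BBC3 and GDF15 are separated between the lines, MDM2 overlaps in 1 Flp-In library, BAX is highest in CTRL and low in RPRD2_KD, and MDM4 is lower in the Flp-In libraries.

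Of the 8 cell death genes, 6 were lower in HEK293T, BAX was higher and TP53INP1 did not pass. Over all genes tested, 33.6% were lower and 35.1% higher. FAS, among the 6, had too few counts for a test within either line. PHLDA3 (chr1:201464383-201469237, - strand), which holds back the kinase AKT by competing for membrane lipids, was at 15.9, 23.4 and 32.7 CPM in HEK293T and at 126, 144 and 170 CPM in Flp-In libraries. No library lay between these ranges. Its log2 fold change was -2.65 (SE 0.10, edgeR adjusted p = 1.53e-18), the smallest adjusted p among the 30 genes, and it was -2.43 (SE 0.24, edgeR adjusted p = 2.39e-08) for CTRL, at 28.3 and 20.4 CPM, against FLP, at 126 and 134 CPM. The genes around PHLDA3 had a median of 0.16.

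PMAIP1 (chr18:59899948-59904306, + strand), which encodes NOXA, and BBC3 (chr19:47220822-47232766, - strand), which encodes PUMA, are the BH3-only genes through which p53 engages the mitochondrial death pathway. PMAIP1 was at 59.6, 83.3 and 140 CPM in HEK293T and at 205, 281 and 390 CPM in Flp-In libraries, a log2 fold change of -1.61 (SE 0.11, edgeR adjusted p = 5.99e-13). BBC3 was at 42.6, 58.1 and 81 CPM against 124, 150 and 164 CPM, a log2 fold change of -1.30 (SE 0.09, edgeR adjusted p = 7.99e-13). Neither gene overlapped between the lines, and both also passed in CTRL against FLP, at -1.80 and -1.42 (edgeR adjusted p = 8.03e-06 and 1.68e-05). Within the Flp-In groups, PMAIP1 was highest in FLP (351 ± 55 CPM, SD, n = 2) and lowest in RPRD1B_FL_TET (226 ± 30 CPM, SD, n = 2), and BBC3 was highest in FLP_TET (161 ± 4 CPM, SD, n = 2) and lowest in FLP (124 ± 0.14 CPM, SD, n = 2).

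BAX (chr19:48954815-48961798, + strand), which opens the outer mitochondrial membrane, was the exception among the death genes. It was at 21.2, 42.5 and 57.2 CPM in HEK293T and at 13.8, 25.5 and 34.5 CPM in Flp-In libraries, higher by 1.59-fold in HEK293T (log2 fold change 0.67, SE 0.12, edgeR adjusted p = 1.97e-05). The ranges overlap: both RPRD2_KD libraries, 1 of RPRD1A_RPRD1A_KD and 1 of RPRD1B_KD lay below the highest Flp-In library. In CTRL, at 57.2 and 51.5 CPM, BAX was 2.62-fold above FLP, at 28.5 and 13.8 CPM (edgeR adjusted p = 0.000323).

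The death receptor genes differed in how much was counted. TNFRSF10B, the TRAIL receptor DR5, was at 27.5, 33.4 and 41.4 CPM in HEK293T and at 67.8, 80.3 and 95.1 CPM in Flp-In libraries without overlap, lower by 2.48-fold (edgeR adjusted p = 6.67e-13). The 40 tested genes around TNFRSF10B were lower as well, with a median log2 fold change of -0.95 (quartiles -2.59 and -0.54) against -1.31 for TNFRSF10B, and whether its difference goes beyond theirs was not tested. FAS, the receptor of the FAS ligand, was at 0, 1.51 and 4.44 CPM from 63 counts against 1.9, 3.1 and 5.32 CPM from 70 counts, a ratio of 1.9 (exact 95% interval 1.33 to 2.71). The FAS ranges overlap.

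AEN, an apoptosis-enhancing nuclease, was at 135, 157 and 204 CPM in HEK293T and at 329, 373 and 448 CPM in Flp-In libraries. Its ranges stood far apart, the fold was 2.39 (log2 fold change -1.26, SE 0.06, edgeR adjusted p = 2.77e-15), and CTRL against FLP gave 2.17 (edgeR adjusted p = 4.78e-06). TP53INP1, a stress protein that promotes the phosphorylation of p53, was spread over 1.57 to 12.8 CPM in HEK293T and 4.74 to 10.8 CPM in Flp-In libraries (log2 fold change -0.35, SE 0.20, edgeR adjusted p = 0.124).

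Of the 6 genes of metabolism, redox control and secretion, 4 were lower, TIGAR was higher and SPATA18 was not tested. Over all genes tested, 33.6% were lower and 35.1% higher. GDF15, among the 4, passed the filter on low counts through the Flp-In groups and adds no support to this count. GDF15 (chr19:18374731-18389176, + strand), a secreted stress cytokine, was at 0, 1.59 and 3.38 CPM in HEK293T, from 65 counts in 16 libraries, and at 5.78, 9.55 and 14.1 CPM in Flp-In cells, from 222 counts in 8. The ranges did not meet, and the ratio of summed levels was 5.83 (exact 95% interval 4.4 to 7.8, counting error only). SESN1 encodes a sestrin, a nutrient sensor that restrains mTORC1, and it was at 12.2, 19.1 and 31.1 CPM against 31.2, 38.4 and 51 CPM. Its lowest Flp-In library exceeded its highest HEK293T library only barely, the ranges overlapped with plain library sizes, and the fold was 1.93 (edgeR adjusted p = 1.25e-08). FDXR, which passes electrons to mitochondrial P450 enzymes, was at 23.7, 27.2 and 40.5 CPM against 44.5, 57.4 and 64.1 CPM, lower by 2.01-fold without overlap (edgeR adjusted p = 2.43e-10).

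TP53I3, an NADPH-dependent quinone reductase, was at 1.4, 3.18 and 5.8 CPM in HEK293T and at 3.96, 5.91 and 9.34 CPM in Flp-In libraries, lower by 1.87-fold with overlapping ranges (edgeR adjusted p = 0.000648). TIGAR (chr12:4307763-4354593, + strand), a phosphatase that slows glycolysis, was at 14.2, 32.4 and 42.6 CPM against 17.2, 18.8 and 27 CPM. It was higher by 1.58-fold in HEK293T (log2 fold change 0.66, SE 0.12, edgeR adjusted p = 3.67e-05), with the second RPRD1A_RPRD2_KD library as the lowest of all, and CTRL against FLP did not pass (0.52, SE 0.29, edgeR adjusted p = 0.172). SPATA18, which takes part in the removal of damaged mitochondrial proteins, had 38 counts over 16 HEK293T and 57 over 8 Flp-In libraries, a ratio of 2.56 (exact 95% interval 1.67 to 3.96).

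Of the 4 DNA repair and nucleotide supply genes, DDB2 was lower, POLH was higher, and XPC and RRM2B did not pass. Over all genes tested, 33.6% were lower and 35.1% higher. DDB2 (chr11:47214465-47239240, + strand), which recognises ultraviolet lesions, was at 7.98, 10.3 and 17.3 CPM in HEK293T and at 26.6, 32.1 and 45.9 CPM in Flp-In libraries. No library crossed the gap, and the log2 fold change was -1.60 (SE 0.12, edgeR adjusted p = 7.41e-12). POLH (chr6:43576150-43615660, + strand), the polymerase that copies past such lesions, was at 3.76, 7.52 and 13.7 CPM against 1.9, 3.07 and 4.18 CPM, with a small overlap. Its log2 fold change was 1.21 (SE 0.20, edgeR adjusted p = 8.65e-06), while the genes around it had a median of -0.38. In CTRL against FLP it was 1.24 (SE 0.44, edgeR adjusted p = 0.0313), a call that was lost in 5 settings (adjusted p from 0.0549 to 0.234, DESeq2 and leaving out the first CTRL library among them). XPC, the damage sensor of nucleotide excision repair, was at 24.2, 36 and 43.5 CPM against 27.7, 32.6 and 53.6 CPM (-0.01, SE 0.09, edgeR adjusted p = 0.903). RRM2B, the p53-inducible subunit of ribonucleotide reductase, was at 14.8, 24 and 31.4 CPM against 14.1, 22.9 and 27.2 CPM (0.11, SE 0.12, edgeR adjusted p = 0.398).

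Some 3′ ends of these genes lie beside another annotated gene, and whether the counting used strand is not given in the sources used here. Within the last 1000 bases, PLK3, TNFRSF10B and XPC overlap genes on the opposite strand (TCTEX1D4, RHOBTB2, and AC090004.1 with AC093495.1), and PHLDA3 and TIGAR overlap genes on their own strand (AC096677.2 and AC008012.1). The share of those genes in the counts is uncertain.

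Gene groups around the pathway were compared in the same way. Of 40 further p53 targets, 37 were tested, 22 were lower in HEK293T and 5 higher, with a median log2 fold change of -0.43 beside 0.029 for all genes tested. That is 73% called, beside the 68.8% of all genes (35.1% higher, 33.6% lower). Only 34 had enough counts within HEK293T cells, against 37 within Flp-In cells, so some calls may rest on the filter. The largest differences in that list were in EDA2R, a receptor of the TNF family (-4.65, SE 0.45), SFN, the 14-3-3 protein that keeps cells in G2 (-4.07, SE 0.18), and the TRAIL decoy receptor TNFRSF10C (-3.24, SE 0.54), with edgeR adjusted p of 3.80e-09, 2.14e-16 and 9.53e-06. In CTRL against FLP, EDA2R (-6.53, SE 1.57) and SFN (-3.55, SE 0.44) passed. TNFRSF10C did not (-2.36, SE 1.4, edgeR adjusted p = 0.2025). Whether the filter fixed these differences was not tested, so they and the count of 22 lower genes are descriptions and add no support. Of 25 tested genes for proteins that act on p53, 12 were higher and 4 lower (64% called), with a median of 0.18. They were led by ATM (1.43) and CHEK2 (1.21), kinases that phosphorylate p53 after DNA breaks, and RCHY1 (1.19), another ubiquitin ligase for p53. Only 23 genes of this list had enough counts within Flp-In cells, against 25 within HEK293T cells, so the same limit applies here. Of 22 cell cycle genes that p53 represses through p21 and the DREAM complex, 13 were lower and 4 higher (77.3% called), with a median of -0.32. PLK4, which drives centriole duplication, was higher (1.24, edgeR adjusted p = 1.68e-08), while the mitotic kinases PLK1 (-0.96, edgeR adjusted p = 4.02e-12) and AURKA (-0.94, edgeR adjusted p = 6.94e-12) were lower in HEK293T together with CDKN1A.

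Silencing of the RPRD genes was compared with the control siRNA within HEK293T cells. No p53 response gene passed in any of the 7 silenced groups or in the mean of the 7. The same tests also missed some of the silenced genes themselves. RPRD1B did not pass in RPRD1B_KD (log2 fold change -1.77, SE 0.42), nor RPRD2 in the triple knockdown (-0.71, SE 0.18, edgeR adjusted p = 0.887). RPRD1A passed in every group labelled with it, and RPRD2 in RPRD2_KD and RPRD1B_RPRD2_KD. Without being a named target, RPRD1A had log2 fold changes of -0.77 in RPRD1B_KD, -0.88 in RPRD2_KD and -1.06 in RPRD1B_RPRD2_KD, and none passed. These estimates share the same CTRL libraries, and their cause was not tested. A lack of calls therefore does not show that levels were unchanged. Of the 31 genes, 27 had enough counts to be tested (FAS, GDF15, PLK2 and SPATA18 had not). Among all 11834 genes tested, edgeR called 1 gene (0.00845%) in RPRD1A_KD, RPRD1B_KD, RPRD2_KD and RPRD1A_RPRD2_KD, and 2 genes (0.0169%) in the triple knockdown, RPRD1A_RPRD1A_KD, RPRD1B_RPRD2_KD and the mean of the 7, so 0 of 27 is close to the background. Of the 189 tests of a gene in a group, 7 had an unadjusted p under 0.05 and the log2 fold changes lay between -1.07 and 0.75. DESeq2 also called 0 of these genes in each of the 8 comparisons. These fits left out the replicate number, by which HEK293T libraries deviated together. With it as a block, edgeR still called 0 of these genes in each. The medians of the 27 genes lay between -0.03 and 0.13, beside -0.011 to 0.004 for all genes tested.

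BAX gave the smallest adjusted p. It was at 57.2 and 51.5 CPM in CTRL and at 30.1 and 21.2 CPM in RPRD2_KD, and both silenced libraries were below both controls. The log2 fold change was -1.07 (SE 0.22, edgeR adjusted p = 0.628). In the other single knockdowns BAX was at 42.9 and 39 CPM (RPRD1A_KD, log2 fold change -0.40) and at 38.8 and 32.3 CPM (RPRD1B_KD, -0.61). In the combined knockdowns the log2 fold change was -0.31 in the triple knockdown, -0.54 in RPRD1A_RPRD1A_KD, -0.11 in RPRD1B_RPRD2_KD and -0.29 in RPRD1A_RPRD2_KD, so all 7 estimates were below 0. These share the 2 CTRL libraries, and a low or high value there moves all 7 at once. Against CTRL, the mean of the 7 was -0.48 (SE 0.16, edgeR adjusted p = 1). With the second RPRD1A_RPRD2_KD library left out and the replicate number as a block, BAX passed in RPRD2_KD (-1.08, edgeR adjusted p = 0.000208) and in the mean of the 7 (-0.49, edgeR adjusted p = 0.0435). In that fit 1.35% and 1.32% of all genes passed, 166 and 162 of 12255, and 1 of 28 tested p53 response genes in each. The GC correction with the block gave -1.03 (edgeR adjusted p = 0.0481) in RPRD2_KD, where 6 genes passed (0.0507%). The 3 combined knockdowns whose labels name RPRD2 had BAX means of 43.7 to 50 CPM, above the 25.7 CPM of RPRD2_KD, and the difference between them was not tested.

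Other estimates had the same sign in all 7 silenced groups. MDM4 (0.02 to 0.23), FBXW7 (0.20 to 0.43), BTG2 (0.13 to 0.60), BBC3 (0.31 to 0.49), TNFRSF10B (0.20 to 0.35) and SESN1 (0.11 to 0.58) were above 0 in each, with no adjusted p under 0.628, and they share the same controls. CTRL had the lowest group mean of all 12 for BTG2, BBC3, TNFRSF10B and SESN1. MDM2 stayed between -0.13 and 0.11, at group means of 66.5 to 77.6 CPM beside 71.9 ± 1.9 CPM (SD, n = 2) in CTRL. CDKN1A lay between -0.45 and 0.25, with group means of 11.3 to 18.1 CPM beside 15.3 ± 5.9 CPM (SD, n = 2) in CTRL, and PPM1D between -0.19 and 0.28.

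**Figure D4:**
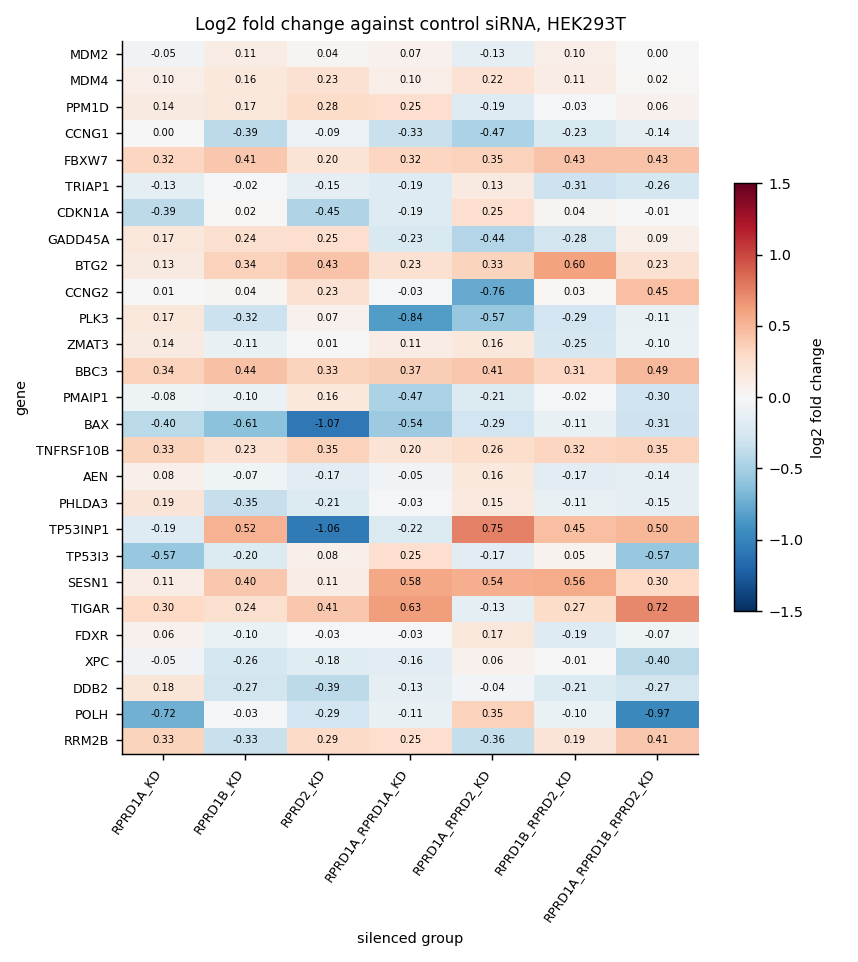
Log2 fold change against CTRL for 27 p53 response genes (rows) in the 7 silenced HEK293T groups (columns), with each value printed in its cell. BAX is below 0 in all 7 groups and lowest, at -1.07, in RPRD2_KD, and no value passed an adjusted p of 0.05.

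In the Flp-In cells, 29 of the 31 genes were tested among 11948, and none passed in any comparison. RPRD1B itself passed only for RPRD1B_FL_TET against FLP_TET (1.34, edgeR adjusted p = 0.000324). It did not pass for RPRD1B_FL_TET against RPRD1B_FL (0.77, edgeR adjusted p = 0.404) or RPRD1B_FL against FLP (0.34, edgeR adjusted p = 0.467). A lack of calls here too does not show that levels were unchanged. Of all genes tested, 1.18% passed for RPRD1B_FL against FLP (0.226% higher, 0.954% lower), 1.1% for RPRD1B_FL_TET against FLP_TET (0.218% higher, 0.887% lower), 1.02% for FLP_TET against FLP (0.226% higher, 0.795% lower), and 0% for RPRD1B_FL_TET against RPRD1B_FL and for the difference between the 2 tetracycline effects. The counts with an unadjusted edgeR p under 0.05 were 3, 1, 6, 2 and 1 of 29, and DESeq2 called 0 in each, though it gave an adjusted p for only 23, 28 and 8 of the 31 genes in the first 3. Log2 fold changes in the first 4 comparisons lay between -0.67 and 0.62. GADD45A came closest: it was at 63.5 and 55.3 CPM in FLP and at 41.9 and 32.7 CPM in FLP_TET, and both tetracycline libraries were below both others (-0.67, SE 0.19, edgeR adjusted p = 0.0676). In RPRD1B_FL cells it was at 40.5 and 46.4 CPM without and at 26.7 and 32.9 CPM with tetracycline (-0.57, SE 0.21, edgeR adjusted p = 0.789).

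Other Flp-In calls differed between settings. MDM2 was at 168 and 135 CPM in FLP and at 97.6 and 116 CPM in FLP_TET (-0.51, SE 0.21, edgeR adjusted p = 0.152). FBXW7 (-0.65, edgeR adjusted p = 0.0973) and XPC (-0.61, edgeR adjusted p = 0.0962) also had estimates below 0 in FLP_TET. Fitted on FLP and FLP_TET alone, GADD45A, MDM2, FBXW7 and XPC passed, with edgeR adjusted p of 0.0211, 0.031, 0.0324 and 0.0442. That is 4 of 29, in a fit that called 10.6% of all genes. Without the second FLP library XPC alone passed (-0.81, edgeR adjusted p = 0.0489), beside 5.52% of all genes, and with the GC correction GADD45A passed (-0.89, edgeR adjusted p = 0.0249), beside 1.57%. SESN1 was at 31.6 and 31.2 CPM in FLP and at 43.4 and 51 CPM in RPRD1B_FL (0.59, SE 0.20, edgeR adjusted p = 0.167), and it passed with the GC correction (0.69, edgeR adjusted p = 0.025), beside 2.54% of all genes. The RPRD1B_FL and tetracycline libraries also differed in GC content: rho was -0.16 and 0.09 in FLP, 0.36 and 0.41 in FLP_TET, 0.30 and 0 in RPRD1B_FL, and 0.52 and 0.18 in RPRD1B_FL_TET.

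Some p53 response genes differed between the replicate numbers of HEK293T cells, as did many other genes, in a comparison added after the data were seen. Of the 27 genes tested, 5 were higher and 1 lower in replicate 2 than in replicate 1 by edgeR's test, against 20.1% of all 11834 genes (9.09% higher, 11% lower). The share of p53 response genes called is thus close to the background. CDKN1A was at 8.42 to 11.1 CPM in the 8 libraries of replicate 1 and at 13.1 to 27.7 CPM in those of replicate 2, higher in 8 of 8 groups and without overlap (log2 fold change 0.92, SE 0.15, edgeR adjusted p = 0.000246). PMAIP1 was at 59.6 to 83.3 CPM against 83.2 to 140 CPM, also higher in 8 of 8 groups (0.51, SE 0.07, edgeR adjusted p = 8.99e-05). GADD45A (0.66, edgeR adjusted p = 0.00695), BTG2 (0.68, edgeR adjusted p = 0.0235) and CCNG1 (0.40, edgeR adjusted p = 0.0213) were each higher in 7 of 8 groups.

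PHLDA3 went the other way, at 20.3 to 32.7 CPM in replicate 1 and 15.9 to 28.4 CPM in replicate 2, lower in 7 of 8 groups (-0.36, SE 0.11, edgeR adjusted p = 0.0327, and 0.0593 without the filter on low counts). Reads outside genes were fewer in replicate 2 of every HEK293T group, and the part of that in these differences was not tested. In Flp-In cells 0 of 29 genes passed between replicate numbers (0% of all genes by edgeR, 2 of the 29 with an unadjusted p under 0.05), and CDKN1A was at 70.7 to 97.3 CPM in replicate 1 and 61.7 to 106 CPM in replicate 2. The cell lines were also compared within each replicate number, with 1 library a group. That fit takes the different groups of a line as its replicates, so only effect sizes are given. The log2 fold changes within numbers 1 and 2 were -1.90 and -1.43 for PMAIP1, -1.62 and -0.94 for GADD45A, -2.53 and -2.81 for PHLDA3, and -0.65 and -0.93 for MDM2. CCNG1 had -0.62 and -0.28, and FBXW7 had 0.63 and 0.33.

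**Figure D5:**
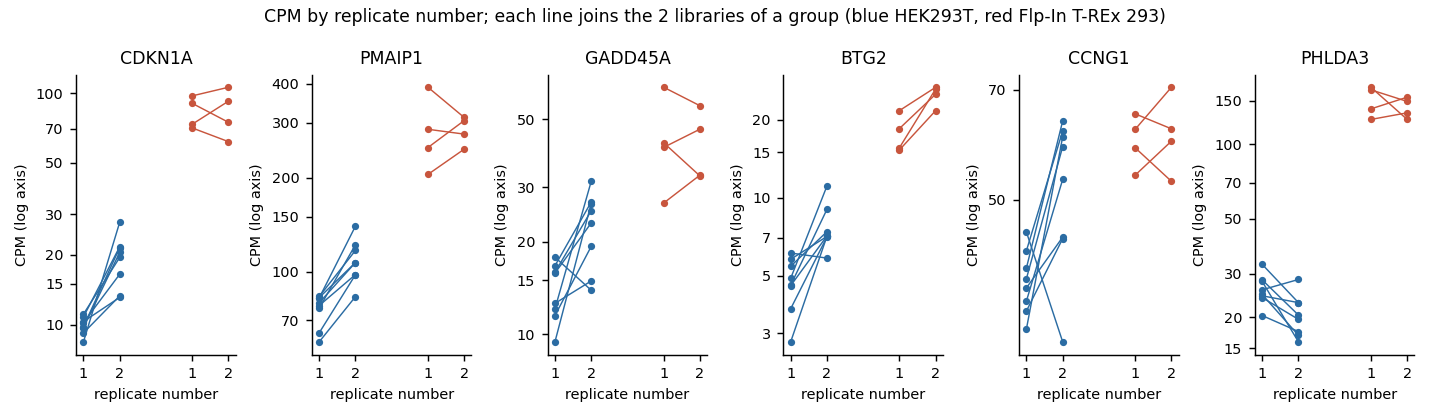
CPM on a log axis by replicate number, each line joining the 2 libraries of a group, blue for HEK293T and red for Flp-In. CDKN1A and PMAIP1 are higher in replicate 2 in 8 of 8 HEK293T groups and PHLDA3 is lower in 7 of 8, while the 4 Flp-In lines of each of these 3 genes run in both directions.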

How the data were processed

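RNA of 24 samples in 12 groups of 2 was read with the QuantSeq 3′ mRNA-Seq REV kit, per the labels' protocols. Each sample has 1 deposited table of unnormalized read counts by gene name, with 58138 names and 5 closing rows for unassigned reads. The closing rows (30.4% to 48.47% of the reads) were left out of library sizes and tests. FastQC, STAR, HTSeq, DESeq2 and GRCh38 are named in the submitters' processing notes; the annotation, the filters and the strand setting are not given in the sources used here.

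The tests used edgeR 4.0.16, with limma 3.58.1, under R 4.3.3: filterByExpr (minimum count 10, minimum total 15), TMM scaling, and the quasi-likelihood test with 1 coefficient a group, with Benjamini-Hochberg adjustment across every gene that entered the fit. All 24 samples entered the fit of the cell lines, and each line had its own fit otherwise. The comparison of the lines within a replicate number instead had the line as its only term, over 1 library a group. CPM are counts over the counts in genes times the TMM factor of the fit of all 24 samples, and SE is the size of the log2 fold change divided by the root of the F statistic. Residual degrees of freedom were 12, 8 and 4. Exact intervals cover counting error only. The scripts were tested on simulated data.

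Groups and replicate numbers come from the labels. The 31 genes, the other lists and the rule for named genes (all members, full values for those called between the lines, at most 3 genes from each other list) were chosen with earlier results of these data known. Alternatives were RLE factors, plain library sizes, DESeq2 1.42.0, no filter, a mean count of 50 or more, only the groups compared, the replicate block, a GC correction (lowess span 0.3) and leaving out each sample; others were added after the data were seen. Gene positions are from GENCODE 29, where all 31 names matched 1 gene. Promoter sequences are from RefSeq (GRCh38.p14), 40 windows for 26 of the genes. A marker of another cell type is not reported here and is left out of the summed marker levels.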

Additional observations from a re-analysis of the deposited data

How the results depend on the processing

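No result reversed its direction. Of the 26 genes called between the cell lines, 22 kept their call in every setting in which they were tested, and CCNG1, FBXW7, CCNG2 and MDM4 did not (MDM4 fell to 0.16, edgeR adjusted p = 0.153, with the GC correction and replicate block). CCNG1 and FBXW7 lost theirs only among libraries numbered 2 alone, where the groups of a line served as its replicates. The count was 16 with a mean count of 50 or more, where only 19 of the genes were tested and 72.8% of all genes passed. Leaving out single libraries gave 26 to 28 between the lines, beside 64.5% to 69% of all genes. For CTRL against FLP it gave 14 to 17, where 33.4% of all genes passed in the main fit. For the 6 genes called between replicate numbers in HEK293T, the count was 3 with a mean count of 50 or more (16 tested), where 2055 of all genes passed.

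Counts of 0 became 1 for RPRD2_KD with the GC correction and replicate block, and for RPRD2_KD and the mean of the 7 without the second RPRD1A_RPRD2_KD library and with the block (BAX in each); for RPRD1B_FL against FLP with the GC correction, without and with the block, 1 each (SESN1); for FLP_TET against FLP, 1 with the GC correction, without and with the block (GADD45A), 4 with only the groups compared, and 0 to 1 leaving out single libraries. The cause was not tested. Every other comparison stayed at 0 throughout.

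Same-numbered HEK293T samples deviated together, with a mean r of 0.325 across 28 pairs of groups (-0.0122 to 0.514, 26 over 0.1). For Flp-In groups it was near 0, at -0.0156 (6 pairs, -0.345 to 0.453). The main fits nevertheless left the replicate number out for each line. The knockdown fits thus ignore a deviation that HEK293T libraries share, and the block is given as an alternative. With the replicate number as a block, 17 genes passed in CTRL against FLP, 27 between the lines (61.9% of all genes) and 0 in each other comparison. Depth limits PLK2, GDF15, FAS and SPATA18, which had 0 counts in some HEK293T libraries.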
